A study of Mus musculus with 6 samples.

Results

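The genes described here are 10 members of the BCL2 family, taken by symbol from tables of 34745 genes measured in hematopoietic stem cells (HSCs) of mice with and without the Mediator subunit Med23. They comprise 3 pro-survival genes (*Bcl2*, *Bcl2l1* and *Mcl1*), 2 effectors (*Bax* and *Bak1*) and 5 BH3-only genes (*Bcl2l11*, *Bbc3*, *Pmaip1*, *Bad* and *Bid*). All 10 symbols were found, each on 1 identifier, and 9 had enough reads to be tested. Bulk RNA-seq compared bone marrow HSCs of adult C57BL/6 mice in 3 WT samples and 3 samples deficient in *Med23* (KO), sorted as LSK cells positive for CD150 and negative for CD34 and CD48. LSK cells lack lineage markers and carry Sca1 and cKit, and among them are the stem cells.

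Both groups carry *Med23* with loxP sites (Med23floxp/flowp in the labels). WT mice lack Cre and are described as littermates, and KO mice carry Mx1-cre. The *Mx1* promoter is driven by interferon, so that Cre acts in all interferon-responsive cells and not in HSCs alone, and the methods describe injection of poly(I:C), an inducer of interferon, to start the deletion. The interval between injection and sorting of these libraries, and whether their WT mice were injected, are not given in the sources used here. Nor do the labels say whether each sample is a separate animal, and p-values measure only the spread between these samples. In bulk RNA, fewer cells of a type and less RNA per cell cannot be told apart.

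The BCL2 family decides whether the outer mitochondrial membrane is breached in apoptosis. The effectors BAX and BAK form the pores, the pro-survival proteins hold them in check, and the BH3-only proteins, each tied to a different kind of stress, either occupy the pro-survival proteins or act on the effectors directly. HSCs are known to depend on MCL1 for survival, and enforced BCL2 is known to enlarge the HSC compartment. Many steps of this pathway are set by protein binding, phosphorylation and degradation, which RNA-seq does not measure.

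Total counts per library were between 3537269 and 8131344, and the detection floor of 3 counts equals 0.369 to 0.927 CPM (reads of a gene scaled to a common library size with TMM factors). Here and below, values are in the order of replicates 1 to 3. *Med23* itself had 47.6, 70.8 and 24.1 CPM in WT against 31.6, 29.8 and 36.8 CPM in KO, which is -0.54 on the log2 scale (standard error 0.41, edgeR adjusted p = 0.989). The library labelled WT replicate 3 lay below every KO library, against its label. The *Med23* estimate was -0.85 without it, -0.13 without WT replicate 2 and -0.93 with replicates 1 and 2 of each group alone. Values without the library labelled WT replicate 3 are given for each of the tested family genes. Since reads were summed over the gene, the deleted exons cannot be read apart from the others. Replicate 3 of both groups had at most 1 count on 4 Y-linked genes, where the other libraries had between 1036 and 1855. The 2 noncoding genes *Gm26917* and *Gm42418* took their largest share of counts in the same libraries, 18.1% in WT and 12.0% in KO, against 6.11 to 10.5% elsewhere. All 12 HSC identity markers were above 3 counts in every library, with summed levels of 2482 to 2868 CPM in WT and 2254 to 2562 CPM in KO. Of these, *Kit*, *Ly6a*, *Hlf* and *Esam* were lower and *Mecom* higher in every KO library. Groups thus did not overlap for 41.7% of this list, beside 12.4% of all genes tested. edgeR called 0 of the 12 markers and had 4 at an unadjusted p under 0.05, where 5.71% of all genes lay. DESeq2 had 0 and 5, with 6.74% of all genes at an unadjusted p under 0.05. *Cd48*, which the gate excludes, had 10, 28 and 0 counts in WT and none in KO, too few to be tested. However, *Cd34*, which the gate also excludes, stood at 295.7, 360.1 and 342.7 CPM in WT and at 519.7, 384.4 and 414.4 CPM in KO. Megakaryocyte and platelet markers summed to between 141.8 and 220.0 CPM in WT and between 261.7 and 342.4 CPM in KO. Most of each sum was *Itga2b*, at 166.1, 76.3 and 106.0 CPM in WT and 259.3, 162.5 and 206.8 CPM in KO, with overlapping groups. *Ppbp* and *Gp9* were higher in every KO library, *Gp1bb* overlapped, and *Pf4* overlapped with a lower estimate in KO (-0.22 on the log2 scale). Skeletal muscle markers summed to between 185.3 and 475.3 CPM in WT, with 18 of 18 above 3 counts, and to between 10.7 and 45.5 CPM in KO, with 5 to 6 of 18 above it. Granulocyte markers summed to at most 13.3 CPM except in KO replicate 3, at 208.6 CPM. In that library *Mpo* (175.4 CPM) and *Elane* (23.3 CPM) made up most of the sum, and no other marker of the list exceeded 3.44 CPM. The part of these signals in the BCL2 family values was not tested.

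None of the 10 BCL2 family genes passed the threshold between WT and *Med23*-deficient HSCs, but 3 of 9 showed no overlap between the groups. *Mcl1* was higher in all 3 KO libraries than in any WT library, and *Bcl2* and *Bid* were lower in every KO library. *Bcl2l1*, *Bax*, *Bak1*, *Bcl2l11*, *Bbc3* and *Bad* overlapped. edgeR's quasi-likelihood test called 0 of 9 at an adjusted p under 0.05, where 9 of 12513 genes, or 0.0719%, were called over the whole table. At an unadjusted p under 0.05 it was 0 of 9, with a background of 5.71%, and other settings at that level had *Bid* with the replicate block, *Mcl1* and *Bid* with limma on all genes, and *Bcl2* without WT replicate 2. DESeq2 also called 0 of 9 after adjustment (background 0.96%), and had 1 of 9, *Bcl2*, at an unadjusted p under 0.05 (background 6.74%). Groups did not overlap for 12.4% of all genes, 6.25% with KO higher and 6.15% with KO lower. The median log2 fold change was 0.01 for the 9 genes and -0.01 for all genes tested.

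**Figure D1:**
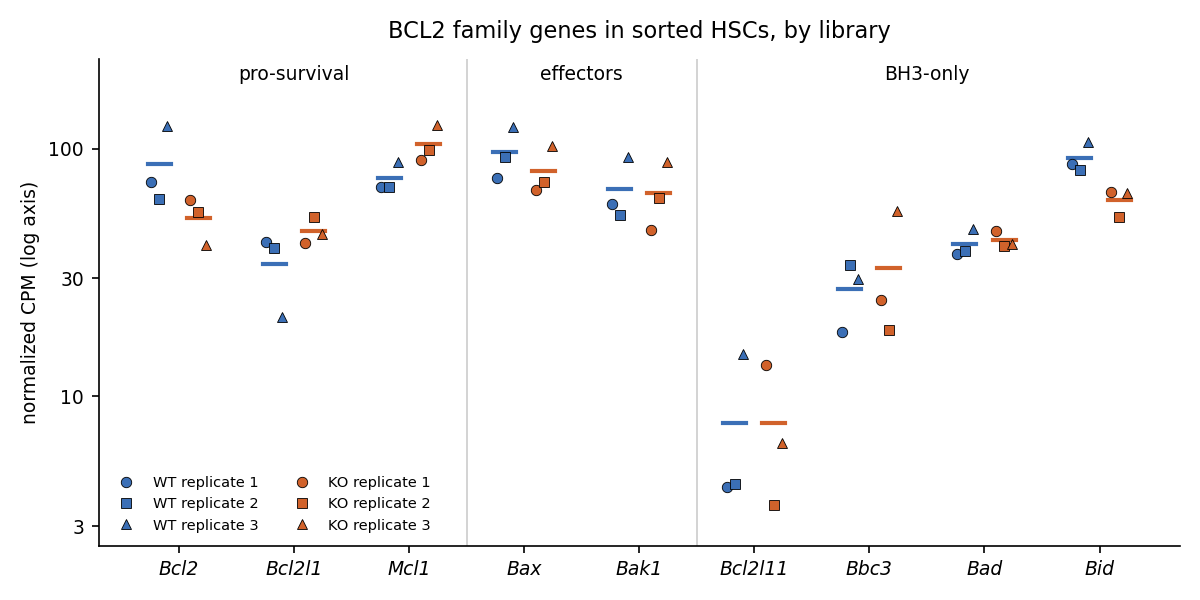
Normalized CPM on a log axis for the 9 BCL2 family genes tested, with circles, squares and triangles for replicates 1, 2 and 3 of WT (blue) and KO (orange) and horizontal bars for group means (n = 3). The KO points of Bcl2 and Bid lie below all WT points, those of Mcl1 lie above, and Bcl2l11 ranges from 3.64 to 14.8 CPM with no separation of the groups.

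Among the pro-survival genes the estimates pointed in different directions. *Bcl2* (ENSMUSG00000057329, chromosome 1 from 106538178 to 106714274, coordinates of GENCODE M21 on GRCm38 here and below) encodes the founding guardian of the mitochondrial membrane. Its level was 73.6, 62.8 and 123.6 CPM in WT against 62.0, 55.3 and 40.7 CPM in KO. The groups were separated by only 0.804 CPM, between WT replicate 2 and KO replicate 1, and the highest WT value came from the library labelled WT replicate 3. The means were 86.7 ± 32.4 CPM in WT and 52.7 ± 10.9 CPM in KO (SD, n = 3). The log2 fold change of KO over WT was -0.71 (standard error 0.33, 95% confidence interval from -1.45 to 0.02), that is 0.609 of the WT level with an interval from 0.365 to 1.02. edgeR gave an unadjusted p of 0.056 and an adjusted p of 0.909, rank 774 of the 12513 genes. Without the library labelled WT replicate 3 the log2 fold change was -0.37, and with replicates 1 and 2 alone, the libraries with Y-linked counts, it was -0.20. The size of the *Bcl2* difference therefore rested largely on the replicate 3 libraries.

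*Mcl1* (ENSMUSG00000038612, chromosome 3 from 95658788 to 95663176) encodes a short-lived guardian whose protein is turned over within the cell more quickly than BCL2. Its WT libraries stood at 70.1, 70.2 and 88.7 CPM and its KO libraries at 90.0, 98.6 and 124.7 CPM. WT replicate 3 came within 1.25 CPM of the lowest KO library. Replicate 3 was the highest of its group in both WT and KO, a feature that *Mcl1* shared with *Bax* and *Bak1*. The means were 76.3 ± 10.7 and 104.4 ± 18.1 CPM (SD, n = 3). On the log2 scale KO exceeded WT by 0.45 (standard error 0.26, interval from -0.11 to 1.02), or 1.37 times WT with an interval from 0.924 to 2.03, and edgeR's adjusted p was 0.95. In contrast to *Bcl2*, the estimate for *Mcl1* did not shrink without the library labelled WT replicate 3 (0.57) and was 0.44 with replicates 1 and 2 alone. It fell to 0.31 without KO replicate 3.

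*Bcl2l1* (ENSMUSG00000007659, chromosome 2 from 152780668 to 152831728), which encodes BCL-XL, stood at 42.0, 39.9 and 21.0 CPM in WT and at 41.7, 53.1 and 45.3 CPM in KO. The library labelled WT replicate 3 held the lowest *Bcl2l1* level of all libraries beside the highest *Bcl2* level. KO replicate 1 lay below WT replicate 1, so that the groups overlapped. The log2 fold change was 0.44 (standard error 0.37, interval from -0.37 to 1.25, edgeR adjusted p = 0.989), and 0.19 without that library. An exact two-sided permutation test gave p = 0.1 for *Bcl2*, *Mcl1* and *Bid*, the smallest value possible with 3 samples against 3, and p = 0.2 for *Bcl2l1*.

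**Figure D2:**
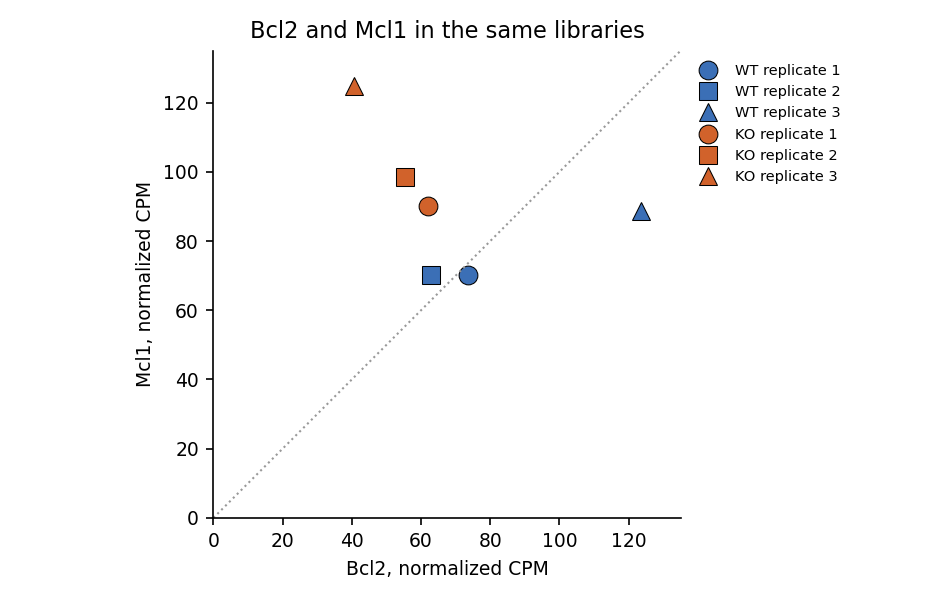
Mcl1 against Bcl2 in normalized CPM, 1 point per library with WT in blue and KO in orange, and a dotted line where both are equal. The KO libraries lie above the line at 90.0 to 124.7 CPM of Mcl1 and 40.7 to 62.0 CPM of Bcl2, whereas WT replicates 1 and 2 lie next to it and WT replicate 3 lies to its right. CPM is not scaled for gene length, so the line does not show which gene is more abundant. In deposited FPKM Mcl1 exceeded Bcl2 in every library, by 1.79 to 7.63 times.

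The plot of *Mcl1* against *Bcl2* sets both genes side by side in each library. The ratio of *Mcl1* to *Bcl2* in deposited FPKM was 2.37, 2.78 and 1.79 in WT and 3.61, 4.44 and 7.63 in KO. This ratio was chosen after the values were seen and was not tested. The difference between group means was 1.13 on the log2 scale. KO lay above WT in every library, but the choice of genes fixed this in advance. In CPM *Mcl1* was higher and *Bcl2* lower in every KO library, so their ratio had to separate the groups. KO replicate 3, which holds the *Mpo* and *Elane* signal, had the highest ratio, and WT replicate 3 the lowest. On the log2 scale these were 2.93 and 0.84. Replicates 1 and 2 stood closer, at 1.25 and 1.48 in WT and at 1.85 and 2.15 in KO. The size of the difference thus rested partly on the replicate 3 libraries. Any single length per gene cancels from the difference between group means.

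Both effectors overlapped between WT and KO. *Bax* (ENSMUSG00000003873, chromosome 7 from 45461697 to 45466898), which encodes a mainly cytosolic pore former that moves to mitochondria on activation, was counted at 76.1, 92.3 and 121.8 CPM in WT and at 68.1, 73.5 and 102.8 CPM in KO. *Bak1* (ENSMUSG00000057789, chromosome 17 from 27019810 to 27029009), whose protein resides on the mitochondrial membrane, stood at 59.9, 54.2 and 93.0 CPM in WT and at 46.8, 63.0 and 88.6 CPM in KO. For both genes the range within a group was larger than the difference of the means, and replicate 3 was highest in each group. The log2 fold change was -0.25 for *Bax* (standard error 0.29, interval from -0.88 to 0.39) and -0.06 for *Bak1* (standard error 0.34, interval from -0.81 to 0.69). The edgeR adjusted p was 0.997 for each. The intervals leave room for a level in KO from 0.544 to 1.31 times WT for *Bax* and from 0.572 to 1.61 times WT for *Bak1*. Without the library labelled WT replicate 3 the estimates were -0.05 and 0.21, and without KO replicate 3 they were -0.44 and -0.32, so the sign for *Bak1* was not fixed. Of the annotated *Bak1* exons, 18.2% of bases are shared with *Ggnbp1* on the other strand, and the strand setting of the counting is not given in the sources used here.

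The BH3-only genes spanned the widest range of levels. *Bid* (ENSMUSG00000004446, chromosome 6 from 120891930 to 120916853) encodes the protein that caspase-8 cleaves to carry death receptor signals to mitochondria. It stood at 86.9, 82.2 and 106.3 CPM in WT and at 67.1, 53.1 and 66.4 CPM in KO. Every KO library lay at least 15.2 CPM below every WT library, the widest gap among the 3 genes without overlap. The log2 fold change was -0.56 (standard error 0.26, interval from -1.14 to 0.02), or 0.678 of WT with an interval from 0.454 to 1.01. edgeR's unadjusted p was 0.056 and its adjusted p 0.906, rank 770 of all genes tested. The estimate was -0.44 without the library labelled WT replicate 3 and -0.48 with replicates 1 and 2 alone. *Bid* shares 17.7% of its annotated exon bases with its neighbour *Bcl2l13* on the opposite strand, whose own log2 fold change was -0.19 (standard error 0.35).

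*Bad* (ENSMUSG00000024959, chromosome 19 from 6941861 to 6951899) encodes a sensor that growth factor kinases silence by phosphorylation. Its values, 37.7, 38.7 and 47.6 CPM in WT and 46.4, 40.6 and 41.1 CPM in KO, were among the most even of the family, with a highest to lowest ratio of 1.26 in WT and 1.14 in KO. KO and WT differed by 0.05 on the log2 scale (standard error 0.31), and its interval allows from 0.64 to 1.67 times WT. The estimate was 0.16 without the library labelled WT replicate 3. *Gpr137*, on the other strand, shares 20.5% of its annotated exon bases.

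*Bbc3* (ENSMUSG00000002083, chromosome 7 from 16308393 to 16318205) encodes PUMA, the main p53-induced killer in many blood cells. It stood at 18.2, 33.8 and 29.7 CPM in WT and at 24.5, 18.6 and 56.1 CPM in KO. KO replicate 3 was the highest library and KO replicate 2 nearly the lowest, a range of 3.02 times within a single group. The log2 fold change of 0.28 (standard error 0.49, interval from -0.81 to 1.36) rested on that library and was -0.34 without it. It was 0.06 without WT replicate 1 and 0.34 without WT replicate 3. *Bcl2l11* (ENSMUSG00000027381, chromosome 2 from 128126038 to 128162547) encodes BIM, which responds to loss of cytokines. Its 20 to 66 counts per library gave 4.31, 4.42 and 14.8 CPM in WT and 13.4, 3.64 and 6.48 CPM in KO. The highest library exceeded the lowest 3.45 times in WT and 3.67 times in KO, and it was replicate 3 of WT and replicate 1 of KO. The log2 fold change of *Bcl2l11* was 0.01, and its interval from -1.83 to 1.85 allows from 0.281 to 3.6 times WT. The estimate was 0.84 without the library labelled WT replicate 3 and -0.62 without KO replicate 1. *Pmaip1*, which encodes NOXA, a p53-induced partner of MCL1, had 2, 0 and 1 counts in WT and 1, 1 and 0 counts in KO. No library exceeded 3 counts, so it was not tested and no fold is given.

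**Figure D3:**
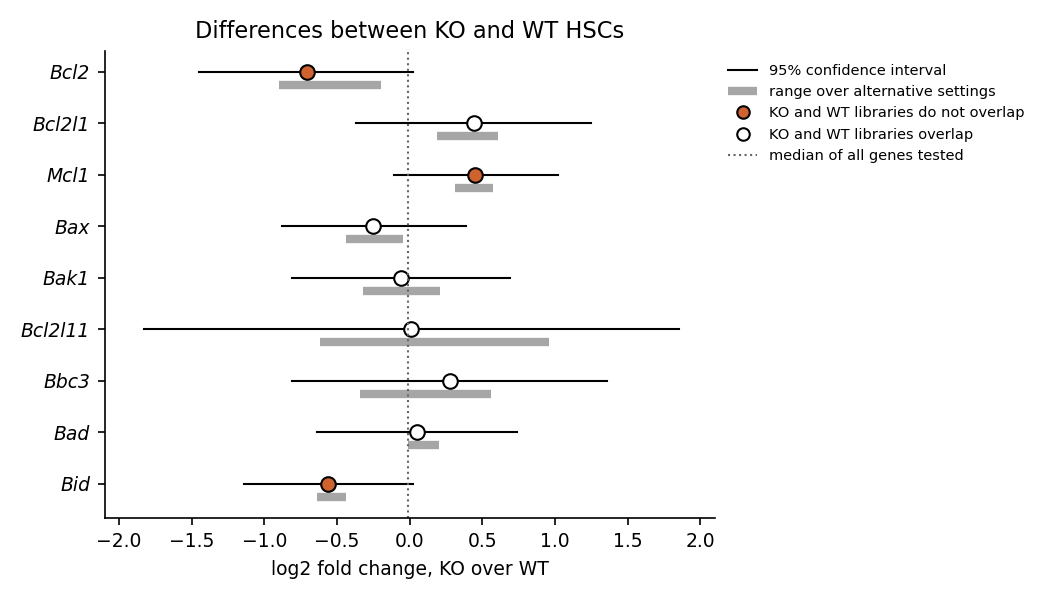
Log2 fold change of KO over WT for the 9 genes tested, with black lines for the 95% confidence interval of edgeR, grey bars for the range over the alternative settings, and filled points where the libraries of the groups do not overlap. Every interval includes 0, with those of Bcl2 and Bid ending at 0.02, and the grey bars of Bak1, Bcl2l11, Bbc3 and Bad cross 0.

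Across the alternative settings, *Bcl2*, *Bcl2l1*, *Mcl1*, *Bax* and *Bid* kept their sign in 15 of 15, and *Bak1*, *Bcl2l11*, *Bbc3* and *Bad* did not. *Bid* had the narrowest range among the 3 genes without overlap, from -0.64 to -0.44. *Mcl1* ranged from 0.31 to 0.57 and *Bcl2* from -0.90 to -0.20. No setting called any of the genes.

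Levels of different genes can be compared only per length, and the length matters for this family. The deposited FPKM use a single length per gene, which was recovered by dividing counts by FPKM. Across 18959 genes it lay within 10% of the sum of all distinct annotated exons for 78.7%, and within 10% of the merged exons, with overlapping exons counted once, for 33.9%. For *Bcl2l1* the implied length was 11905 bases against 4586 of merged exons, and for *Bcl2l11* it was 15525 against 8029. For *Bax* the implied length was shorter than the merged exons, 869 against 1576 bases. FPKM thus lowers *Bcl2l1* and *Bcl2l11* and raises *Bax* relative to a merged-exon scale, and levels are given on both.

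*Bax* was the most abundant of the 10 on either scale, in 6 of 6 libraries. It reached 81.2 to 128.2 FPKM, the 97.4th percentile of tested genes by mean FPKM, and 43.2 to 77.3 CPM per kilobase of merged exons. In FPKM *Mcl1* followed, at 17.4 to 29.8, above *Bak1* in 6 of 6 libraries. On the merged-exon scale *Bak1* (19.4 to 38.6) and *Mcl1* (20.5 to 36.5) did not separate, with *Bak1* higher in 4 of 6 libraries. *Bid* stood at 10.1 to 17.8 FPKM, and *Bak1* exceeded it in only 3 of 6 libraries there. On the merged-exon scale *Bid* was above *Mcl1* in 3 of 3 WT libraries and in 0 of 3 KO libraries. That order held on this scale only, since in FPKM *Mcl1* was above *Bid* in every library. In WT the FPKM were 17.9, 17.4 and 20.1 for *Mcl1* and 16.3, 15.1 and 17.8 for *Bid*. Both genes are among those without overlap, in opposite directions. By their means over all libraries *Bad* and *Bbc3* lay below *Bid*, with neighbours in that order exchanging places between libraries. *Bcl2* stood at 3.9 to 11.3 FPKM and *Bcl2l1* at 1.61 to 4.64 FPKM, with *Bcl2* higher in 6 of 6 libraries. That order turned on the merged-exon scale, where *Bcl2l1* was higher than *Bcl2* in 5 of 6 libraries, the library labelled WT replicate 3 being the exception. *Bcl2l11*, at 0.244 to 0.893 FPKM, was the lowest but for *Pmaip1* on both scales. *Mcl1* was the most abundant pro-survival transcript on both scales, in WT and KO alike.

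**Figure D4:**
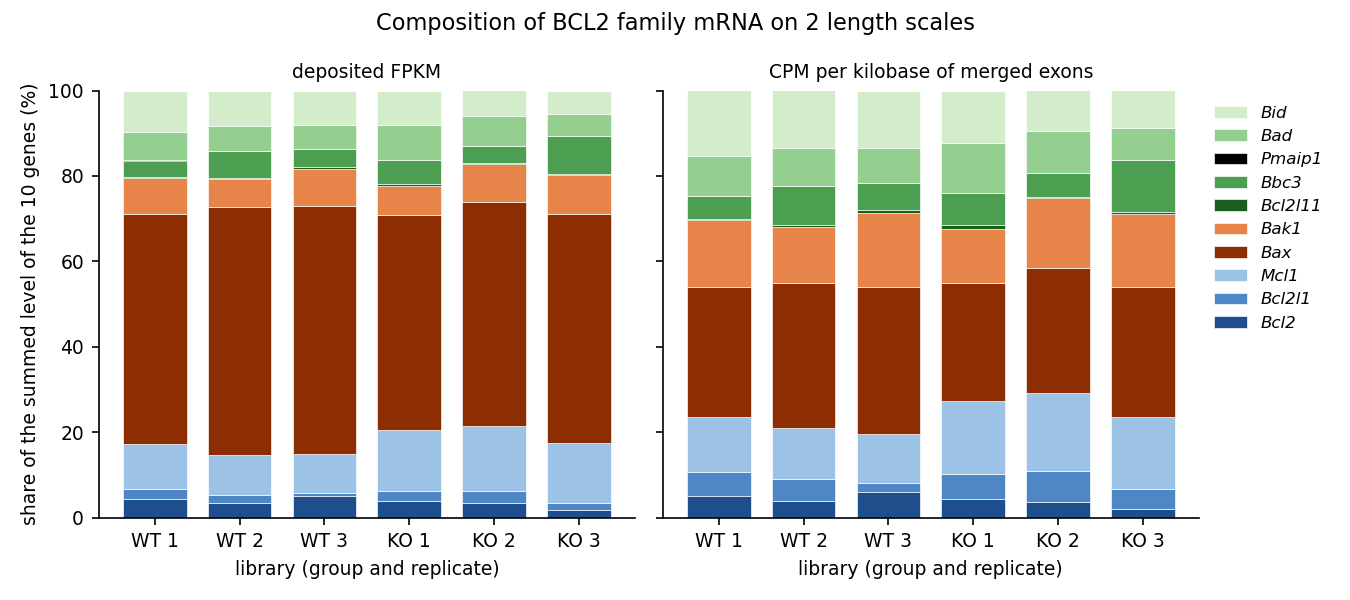
Share of each gene in the summed level of the 10 genes, in percent, for the 6 libraries, from the deposited FPKM on the left and from CPM per kilobase of merged exons on the right, with blue shades for pro-survival genes, brown for effectors and green for BH3-only genes. Bax takes 50.3 to 58% on the FPKM scale but 27.8 to 34.4% on the merged-exon scale, and the Mcl1 band is taller in the KO libraries on both.

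As a share of the summed level of all 10 genes, the pro-survival genes held 17.4, 14.7 and 15.0% in WT and 20.6, 21.4 and 17.6% in KO in FPKM. On the merged-exon scale the shares were 23.7, 21.0 and 19.6% in WT and 27.2, 29.2 and 23.6% in KO. KO libraries were above WT libraries in FPKM, but KO replicate 3 (17.6%) only just above WT replicate 1 (17.4%). On the merged-exon scale KO replicate 3 lay just below WT replicate 1. Within the pro-survival genes, *Mcl1* made up 61.6, 64.4 and 61.0% in WT and 69.7, 71.0 and 79.7% in KO in FPKM. On the merged-exon scale it made up 54.4, 56.9 and 58.9% in WT and 62.4, 62.1 and 71.8% in KO, with no overlap on either. The log2 ratio of pro-survival to effector genes was -2.04 ± 0.18 in WT and -1.61 ± 0.20 in KO (SD, n = 3) in FPKM, a difference of 0.43. This difference was also 0.43 on the merged-exon scale, with overlapping groups. In FPKM KO replicate 3, at -1.83, lay just above WT replicate 1, at -1.84. For the ratio of pro-survival to BH3-only genes the difference was 0.35 in FPKM and 0.40 on the merged-exon scale, with KO above WT in every library on both. It was 0.20 in FPKM without KO replicate 2, and 0.27 in CPM with overlapping groups. These sums carry no test.

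Some of the genes varied together across the 6 libraries, which share their scaling factors and differ in depth and in group. On log2(CPM + 0.5), *Bax* and *Bak1* had a Pearson r of 0.84, *Bad* and *Bcl2l11* of 0.94, and *Bid* and *Bcl2* of 0.80. *Bcl2l1* ran against *Bcl2* (-0.87), *Bid* (-0.86) and *Bax* (-0.73). Among 10136 genes with a mean of at least 50 counts, the patterns most like that of *Bcl2* were those of *Qdpr* (0.986), *Trappc5* (0.972) and *Upp1* (0.961). For *Mcl1* they were *Tiam1* (0.998), *Lsp1* (0.992) and *Vwa9* (0.990). These are the highest of many values over 6 points, and are given as a description.

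Of 16 other genes of the family, only 8 had enough reads to be tested. Among these, 0 were called by edgeR and 0 had an unadjusted p under 0.05, with a median log2 fold change of -0.11. Groups did not overlap for 12.5% of those tested, beside 12.4% of all genes. *Bcl2l14*, a less studied member, was the only one without overlap, at 13.9, 13.5 and 9.27 CPM in WT and at 4.66, 1.27 and 8.5 CPM in KO (log2 fold change -1.35, standard error 0.79, adjusted p = 0.959). Its estimate was -0.89 without KO replicate 2 and -2.04 without KO replicate 3. *Bcl2l2*, which encodes the guardian BCL-W, had an estimate of -0.37 on the log2 scale (standard error 0.66), and -0.10 without WT replicate 2 and -0.62 without WT replicate 3. *Bnip3l*, which encodes a mitophagy receptor, was nearly constant, between 138.3 and 156.0 CPM in all libraries. *Bcl2l10*, *Hrk*, *Bcl2l15* and *Bcl2a1c* had no counts in any library, which allows up to 0.369 CPM in the deepest, and *Bik*, *Bcl2a1a*, *Bcl2a1b* and *Bcl2a1d* had too few to be tested. The *Bcl2a1* genes are near-identical copies, and their counts are uncertain.

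**Figure D5:**
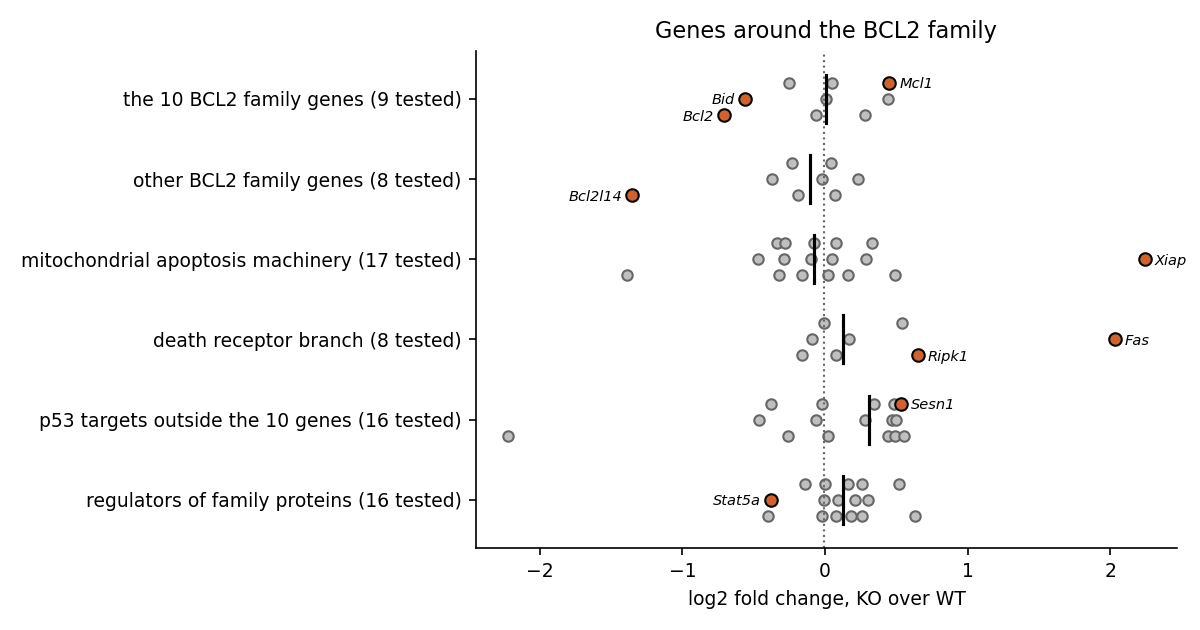
Log2 fold change of KO over WT for each tested gene of the BCL2 family and of the fixed lists around it, with filled and named points where the libraries of the groups do not overlap, short vertical bars for list medians and a dotted line for the median of all genes tested. List medians lie between -0.11 and 0.31, and Xiap and Fas stand apart on the right.

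Downstream of the mitochondrial pore, all 17 genes of the machinery were tested and 0 were called, with 1 higher at an unadjusted p under 0.05 and a median of -0.08. That gene was *Xiap* (ENSMUSG00000025860, chromosome X from 42059679 to 42109656), which encodes an inhibitor of caspases. It stood at 2.87, 18.2 and 8.34 CPM in WT and at 33.8, 40.9 and 66.6 CPM in KO. All KO libraries exceeded all WT libraries, and the WT libraries differed widely among themselves. This gave a log2 fold change of 2.24 (standard error 0.62), with an adjusted p of 0.431 from edgeR and of 0.0281 from DESeq2, so that the call depended on the tool. It was 2.14 without the library labelled WT replicate 3 and 1.82 with replicates 1 and 2 alone. *Birc5*, which encodes survivin, had an estimate of -1.39 on the log2 scale (standard error 0.98) and the channel gene *Vdac1* of -0.34 (standard error 0.26), each with overlapping groups. *Birc5* was at -0.88 without KO replicate 2 and at -2.37 without KO replicate 3, and *Vdac1* at -0.15 without WT replicate 1 and at -0.57 without WT replicate 3.

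In the death receptor branch, whose signals reach mitochondria through *Bid*, 8 of 9 genes were tested, 0 were called and the median was 0.13. *Fas*, which encodes the receptor, stood at 1.44, 2.95 and 0 CPM in WT and at 5.27, 8.37 and 5.26 CPM in KO, with an estimate of 2.03 on the log2 scale and a standard error of 1.19 on few counts. *Ripk1*, which encodes a kinase at the fork between survival and death signalling, stood at 56.4, 75.3 and 65.2 CPM in WT and at 100.9, 104.6 and 103.8 CPM in KO (log2 fold change 0.65, standard error 0.25, edgeR adjusted p = 0.768). Both genes were higher in every KO library, and *Ripk1* was also at 0.65 without the library labelled WT replicate 3. *Cflar*, which encodes the caspase-8 inhibitor c-FLIP, overlapped, with a log2 fold change of 0.54 (standard error 0.45), and -0.08 without KO replicate 1. *Fasl* had no counts in any library.

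Of 16 p53 targets other than the family genes, all were tested, 0 were called and the median was 0.31. The estimate was higher for 10 and lower for 6, beside 6195 higher and 6318 lower over all genes tested. This split was not tested. *Sesn1*, which encodes a stress-induced inhibitor of mTORC1 signalling, stood at 198.7, 199.6 and 193.8 CPM in WT and at 307.5, 300.1 and 245.3 CPM in KO. It was the only gene of this list without overlap, with a log2 fold change of 0.53 (standard error 0.19, edgeR adjusted p = 0.738). Without WT replicate 3 the *Sesn1* estimate was 0.51. *Phlda3* had an estimate of -2.22 (standard error 1.20) on low counts, and *Rrm2b* of 0.55 (standard error 0.36). *Phlda3* was at -1.02 without WT replicate 2, and *Rrm2b* at 0.22 without KO replicate 2. Among 16 regulators of family proteins, 0 were called and the median was 0.13. *Stat5a*, which encodes a cytokine-activated transcription factor that acts on *Bcl2l1* and *Mcl1*, stood at 360.9, 328.6 and 319.3 CPM in WT and at 234.2, 239.3 and 301.7 CPM in KO (log2 fold change -0.38, standard error 0.19, edgeR adjusted p = 0.928). Without WT replicate 3 the *Stat5a* estimate was -0.42. *Mapk8* (0.52, standard error 0.37) and *Usp9x* (0.63, standard error 0.60), which encodes a deubiquitinase of MCL1, overlapped between the groups. *Mapk8* was at 0.29 without WT replicate 2, and *Usp9x* at 0.15 without WT replicate 3 and 0.19 without KO replicate 1. Over all these lists around the family, edgeR called 0 of 64 different genes, beside 0.0719% of all genes. At an unadjusted p under 0.05 edgeR had 3, *Xiap*, *Ripk1* and *Sesn1*, beside 5.71% of all genes. DESeq2 called 1, *Xiap* (background 0.96%), and had 3 at an unadjusted p under 0.05 (background 6.74%). In these lists 6 genes had no overlap, namely *Bcl2l14*, *Xiap*, *Fas*, *Ripk1*, *Sesn1* and *Stat5a*, or 9.38% beside the 12.4% of all genes.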

How the data were processed

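RNA of sorted HSCs was amplified with the SMART-Seq v4 kit per the labels, whereas the methods name the TruSeq RNA kit. Raw counts per gene were deposited by the authors, with TopHat, HTSeq and mm10 named in the submitters' processing notes and no versions. FPKM values were also deposited by the authors, and were found to equal the counts divided by 1 length per gene and the column total, within 0.0703%. Strand use is not given in the sources used here. Of 34745 identifiers, 34344 were found in GENCODE M21, which gave all coordinates and merged exon lengths.

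Differences were tested on the counts with edgeR 4.0.16 in R 4.3.3 (filterByExpr, TMM scaling, robust quasi-likelihood test, Benjamini-Hochberg adjustment over 12513 genes, threshold 0.05). Log2 fold changes are KO over WT, and 95% intervals come from that test. DESeq2 1.42.0 and limma 3.58.1 served as alternatives. For single family genes an exact two-sided permutation test of log2(CPM + 0.5) was added, by direct enumeration of the 20 regroupings. Intervals cover the spread between samples, and counts cover reads and not molecules, since no molecular identifiers are described. The procedure was also run on simulated counts, whose outcome is not given here. These were drawn independently for each library, without the features that set replicate 3 apart, so they cannot show how such features affect the calls.

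The genes, lists and alternatives were chosen with earlier results of these data known. Named genes are the 10 family members, *Med23*, the 3 genes with the smallest unadjusted p of each list (and any called), family genes with too few counts, and the 3 genes most correlated with *Bcl2* and with *Mcl1*, beside the cell type markers. The genes *Bnip3l*, *Gm26917* and *Gm42418* and the ratio of *Mcl1* to *Bcl2* were chosen after their values were seen. The order of *Bid* and *Mcl1* was not among the planned comparisons. Protein sequences were not used here, so a planned search for BH3 motifs was not run. The fits with replicates 1 and 2 alone and the merged-exon scale were added after seeing the data.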

Additional observations from a re-analysis of the deposited data

How the results depend on the processing

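Of 133 values of the tested BCL2 family genes under 15 alternative settings, 122 kept their direction and 11 reversed, and 0 settings called any of the genes. The reversals were *Bak1*, at 0.14 without KO replicate 1 and 0.21 without WT replicate 3; *Bcl2l11*, at -0.01 with DESeq2, -0.02 with upper-quartile scaling, -0.62 without KO replicate 1, -0.28 without WT replicate 1 and -0.29 without WT replicate 2; *Bbc3*, at -0.34 without KO replicate 3 and -0.27 with replicates 1 and 2 alone; and *Bad*, at -0.01 without KO replicate 1 and without WT replicate 1. Of 236 values of 16 other named genes, 233 kept their direction and side of the threshold, though many moved in size, *Bcl2l13* reversed to 0.23 without WT replicate 2, *Cflar* reversed to -0.08 without KO replicate 1, and *Xiap* passed the threshold with DESeq2 (adjusted p = 0.0281). Over the fits that leave out 1 sample, the estimate ranged from -0.32 to 0.21 for *Bak1*, from -0.62 to 0.84 for *Bcl2l11*, from -0.34 to 0.56 for *Bbc3*, from -0.01 to 0.16 for *Bad*, from -0.42 to 0.23 for *Bcl2l13* and from -0.08 to 0.78 for *Cflar*. The causes were not tested. The number of genes called over the whole table was 9 with edgeR and 120 with DESeq2 (50 higher, 70 lower), 15 with limma on log2(FPKM + 1) for genes averaging 1 FPKM or more, and 1 for all genes on that scale. Leaving out each sample gave 5 to 11. The log2 ratio of pro-survival to effector genes, KO minus WT, was 0.23 in CPM, with overlapping groups, in place of 0.43 in FPKM.

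Deviations of same-numbered samples correlated at 0.17, 0.0324 and 0.17, and those of differently numbered samples at -0.173 to 0.035. The value of 0.035 was that of WT replicate 2 with KO replicate 1. Replicate 3 of both groups also had at most 1 count on the Y-linked genes. Whether the numbers pair the samples cannot be told from these values, and the main fit was left without a replicate term. In the fit with a replicate block, 5 genes were called in place of 9 and 0 of the family genes, with *Bid* at an unadjusted p under 0.05. Counts of 20 to 66 for *Bcl2l11* and of at most 2 for *Pmaip1* limit what these depths can show for both.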
